A study of Homo sapiens with 14 samples.

Results

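BAF155 occupancy was compared between naïve and primed human embryonic stem cells (hESCs) from the peaks of 2 chromatin immunoprecipitation (ChIP) libraries, 1 per state, among the 14 samples of the series. The naïve list held 62338 BAF155 peaks and the primed list 58352, or 120690 in all, on chromosomes 1 to 22 and X of hg38. Peaks were called shared when at least 25% of either peak was covered by a peak of the other state. This gave 37045 naïve-only peaks (59.4% of the naïve list, interval 59.0 to 59.8%) and 33691 primed-only peaks (57.7% of the primed list, interval 57.3 to 58.1%). The remaining 25293 naïve and 24661 primed peaks were shared.

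Both libraries came from WIBR3, an established hESC line, and both used a home-made BAF155 antibody, with an input library as control for peak calling. Primed cells were kept in conventional serum-containing medium with FGF2. Naïve cells were obtained from primed cells by a switch to 5i/L/A medium, which contains kinase inhibitors, LIF and activin, and were expanded as mixed colonies. Both states grew on inactivated mouse embryonic fibroblasts, and no step that separates mouse from human reads is described. Peak lists carry no expression values, so the cell state could not be checked against transcripts of marker genes. With 1 library per state, no value below has a replicate error. All intervals are at the 95% level (exact Clopper-Pearson for shares, Woolf for odds ratios) and cover counting error alone, since peaks are not replicates.

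BAF155, the product of SMARCC1, is a scaffold subunit of the mammalian SWI/SNF (BAF) complexes. These complexes use the energy of ATP, through BRG1 or BRM, to slide or evict nucleosomes and so open regulatory DNA to transcription factors. They bind active promoters and enhancers, and in pluripotent cells they occupy many sites of the core pluripotency factors. Naïve hESCs resemble the preimplantation epiblast, and primed hESCs resemble a later epiblast that is closer to germ layer differentiation.

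The sequences under the peaks are shown first for sites of high fold in each class. Fold is the enrichment over input that the authors' peak caller gave. Each sequence is the plus strand of hg38, 200 bp around the peak midpoint, and the capitals mark the short consensus words for transcription factor families that were searched on both strands. The following 2 windows belong to naïve-only peaks of high fold that had a protein-coding transcription start site (TSS) less than 20 kb away, a word in the window and no untranslated sequence in it. The first lay in an intron of ANK2, an adaptor between membrane and cytoskeleton (fold 6.60), and the second at −7.23 kb from DLL4, a Notch ligand (fold 6.56; a minus sign means upstream).
ANK2, chr4:113181494-113181693: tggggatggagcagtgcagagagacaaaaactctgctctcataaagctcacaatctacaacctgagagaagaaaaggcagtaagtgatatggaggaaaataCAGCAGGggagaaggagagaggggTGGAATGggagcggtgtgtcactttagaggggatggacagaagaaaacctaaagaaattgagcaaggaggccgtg
DLL4, chr15:40922009-40922208: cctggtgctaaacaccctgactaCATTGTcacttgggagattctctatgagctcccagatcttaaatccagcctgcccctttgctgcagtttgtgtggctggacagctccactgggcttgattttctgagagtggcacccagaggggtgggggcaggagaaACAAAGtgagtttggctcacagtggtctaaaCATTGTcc

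The strongest primed-only peak with a target gene, at the promoter of UNC5D, which encodes a netrin receptor (fold 10.2), is given by name alone. A pair of primed-only windows chosen in the same way both held a SOX word, in capitals as CATTGT or CTTTGT or the reverse complement. The naïve-only DLL4 window above held SOX words too. Over all windows of a class a SOX word was found in 33.7% (primed-only) and 22.4% (naïve-only). The primed-only pair lay at the promoter of RPH3A, a synaptic vesicle protein (fold 8.94) and in an intron of TCF20 (fold 7.97).
RPH3A, chr12:112590544-112590743: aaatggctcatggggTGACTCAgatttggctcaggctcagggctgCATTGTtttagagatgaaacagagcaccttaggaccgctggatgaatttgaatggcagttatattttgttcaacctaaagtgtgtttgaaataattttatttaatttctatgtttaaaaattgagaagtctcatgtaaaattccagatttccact
TCF20, chr22:42275984-42276183: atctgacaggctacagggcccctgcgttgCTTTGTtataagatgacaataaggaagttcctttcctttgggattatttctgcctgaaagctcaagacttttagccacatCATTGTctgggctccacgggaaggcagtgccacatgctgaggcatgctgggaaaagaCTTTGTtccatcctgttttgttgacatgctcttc

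The 2 shared windows lay in an intron of POU2F2, which encodes the octamer-binding factor OCT2 (fold 10.3 in the naïve list), and at −14.9 kb from MRPS18A, a gene for a mitochondrial ribosomal protein (fold 9.44 in the naïve list).
POU2F2, chr19:42140219-42140418: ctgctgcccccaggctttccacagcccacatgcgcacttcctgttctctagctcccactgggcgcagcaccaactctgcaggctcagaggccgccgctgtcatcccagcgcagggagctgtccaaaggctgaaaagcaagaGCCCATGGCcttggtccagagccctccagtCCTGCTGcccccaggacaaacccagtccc
MRPS18A, chr6:43702591-43702790: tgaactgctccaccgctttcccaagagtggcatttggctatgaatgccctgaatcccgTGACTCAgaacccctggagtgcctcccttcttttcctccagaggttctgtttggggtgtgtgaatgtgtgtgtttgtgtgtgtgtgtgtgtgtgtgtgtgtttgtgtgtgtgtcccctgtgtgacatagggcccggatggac

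A further 4 windows are shown as examples of KLF, SOX and ZIC words, whose shares differed between the state-only classes as described further on, and were chosen after these differences had been seen. They are the 2 distal naïve-only peaks of highest fold with a KLF word, in introns of RGS11 (fold 5.47) and PXMP4 (fold 4.97). The other 2 are the distal primed-only peaks of highest fold with both a SOX and a ZIC word, in introns near the TSSs of ATXN7L1 (fold 7.07) and RNF133 (fold 6.83).
RGS11, chr16:273608-273807: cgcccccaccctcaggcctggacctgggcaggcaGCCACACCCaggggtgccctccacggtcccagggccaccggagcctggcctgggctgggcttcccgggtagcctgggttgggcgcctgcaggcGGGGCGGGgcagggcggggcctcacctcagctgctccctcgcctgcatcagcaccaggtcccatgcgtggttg
PXMP4, chr20:33709940-33710139: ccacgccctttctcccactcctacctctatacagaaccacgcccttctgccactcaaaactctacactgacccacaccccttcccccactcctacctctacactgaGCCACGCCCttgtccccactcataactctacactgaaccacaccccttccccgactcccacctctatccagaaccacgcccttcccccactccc
ATXN7L1, chr7:105664929-105665128: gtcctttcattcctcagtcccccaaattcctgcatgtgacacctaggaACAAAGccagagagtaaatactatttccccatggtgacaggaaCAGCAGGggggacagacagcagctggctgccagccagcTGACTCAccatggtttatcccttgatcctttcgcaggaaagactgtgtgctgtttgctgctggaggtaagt
RNF133, chr7:122679395-122679594: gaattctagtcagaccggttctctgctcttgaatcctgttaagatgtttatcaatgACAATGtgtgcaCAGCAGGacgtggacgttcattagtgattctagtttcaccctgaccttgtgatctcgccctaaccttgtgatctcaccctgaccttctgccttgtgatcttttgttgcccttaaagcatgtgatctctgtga

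Shared peaks were wider than state-only peaks. The median width was 398 bp for naïve-only peaks (quartiles 256 and 659 bp) and 385 bp for primed-only peaks (quartiles 246 and 652 bp). Shared peaks had a median of 657 bp in the naïve list (quartiles 373 and 1130 bp) and of 817 bp in the primed list (quartiles 416 and 1397 bp). A width of 3000 bp or more was reached by 87 naïve-only peaks (0.235%) and 75 primed-only peaks (0.223%), against 379 shared naïve peaks (1.5%) and 856 shared primed peaks (3.47%). Naïve-only and primed-only peaks had similar width quartiles, and shared peaks were broader in both lists.

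The share of state-only peaks was lower among wider peaks. Of naïve peaks under 250 bp 77.9% were naïve-only (interval 77.1 to 78.6%), against 18.7% of those of 3000 bp or more (interval 15.2 to 22.5%). The narrowest and widest primed peaks were primed-only in 78.8% (interval 78.0 to 79.5%) and 8.06% of cases (interval 6.39 to 9.99%). The part of the overlap rule in this order was not tested across widths. When each peak was reduced to 500 bp around its midpoint, 69.0% of naïve and 66.9% of primed peaks were state-only.

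The widest peaks of the primed list were wider than those of the naïve list. The peaks named here were picked for their width after the values had been seen. Distances in this paragraph run from the peak midpoint to the TSS. The widest primed-only peak lay at PCDH10, a protocadherin gene (9021 bp, 1.02 kb from the TSS). The next overlapped the 3′ end of ZIC2, a zinc finger factor of neural development (6723 bp, 8.11 kb from the TSS). The third was 62.1 kb from the TSS of CCDC160 on chromosome X (6066 bp). The 5 widest shared peaks of the primed list measured 20090 bp at BCOR, which encodes a corepressor of a Polycomb complex, 11910 bp over the whole of SOX21, a SOX factor of the nervous system, 11553 bp at CTBP2, a transcriptional corepressor gene, 11506 bp at TNRC18 and 9800 bp at SOX14, another neural SOX factor. The widest naïve-only peaks were shorter, with 5966 bp at 20.8 kb from TMEM41B, 5225 bp in an intron near ARHGEF18 and 4945 bp near SLC3A2. In the naïve list the widest shared peak lay at the TSS of ZFP36L1, an RNA-binding regulator of messenger decay (7175 bp).

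The fold values had a similar spread in state-only and shared peaks. The median fold was 2.87 for naïve-only and 2.92 for shared peaks of the naïve list, and 3.18 for primed-only and 3.43 for shared peaks of the primed list. Fold depends on the depth of each library and its input, which the lists do not give, so fold values were compared within a list. The exception is a minimum fold that was applied to both lists as a filter further on. The results of that filter were not corrected for depth and do not compare the states on an equal scale. Of the 25551 shared pairs 23337 joined 1 naïve peak to 1 primed peak. In these the primed peak was the wider in 13203 (56.6%), with a median width ratio of primed to naïve of 1.11. That ratio was 1.25 over the 10362 pairs at promoters and 0.992 over the 12975 pairs elsewhere. The midpoints of a pair lay a median of 153 bp apart. As a description across pairs, which share a library and are not independent, the fold of both members had a Spearman correlation of 0.273 and the width one of 0.439. Of the 2334 pairs with the highest fold in the naïve list, 925 (39.6%) were also among the 2334 pairs with the highest fold in the primed list.

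Sites differed in how they stood to one another. A naïve-only peak had its nearest neighbour of the naïve list at a median gap of 5.49 kb and the nearest primed peak at 9.66 kb. For primed-only peaks the gaps were 10.2 kb to the primed list and 16.4 kb to the naïve list. Of the primed-only peaks 24.8% (interval 24.4 to 25.3%) lay more than 50 kb from any naïve peak, against 9.82% (interval 9.52 to 10.1%) of the naïve-only peaks from any primed peak. Direct contact with a peak of the other list that covered less than the 25% was rare, at 560 naïve-only peaks (1.51%) and 513 primed-only peaks (1.52%).

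To place the classes relative to genes, each midpoint was assigned to the nearest TSS of a protein-coding gene. Shared peaks were the closest to TSSs by the median and primed-only peaks the furthest, although most shared peaks also lay outside promoters. The median distance was 2.29 kb for shared peaks of the naïve list and 2.6 kb for those of the primed list. It was 18.5 kb for naïve-only peaks (quartiles 6.33 and 50.7 kb) and 35.1 kb for primed-only peaks (quartiles 8.26 and 113 kb). Between 5 and 20 kb from a TSS lay 31.0% of naïve-only peaks (interval 30.6 to 31.5%) and 6560 of the 33691 primed-only peaks (19.5%). Between 100 and 500 kb lay 4238 naïve-only peaks (11.4%) and 7748 primed-only peaks (23%).

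**Figure D1:**
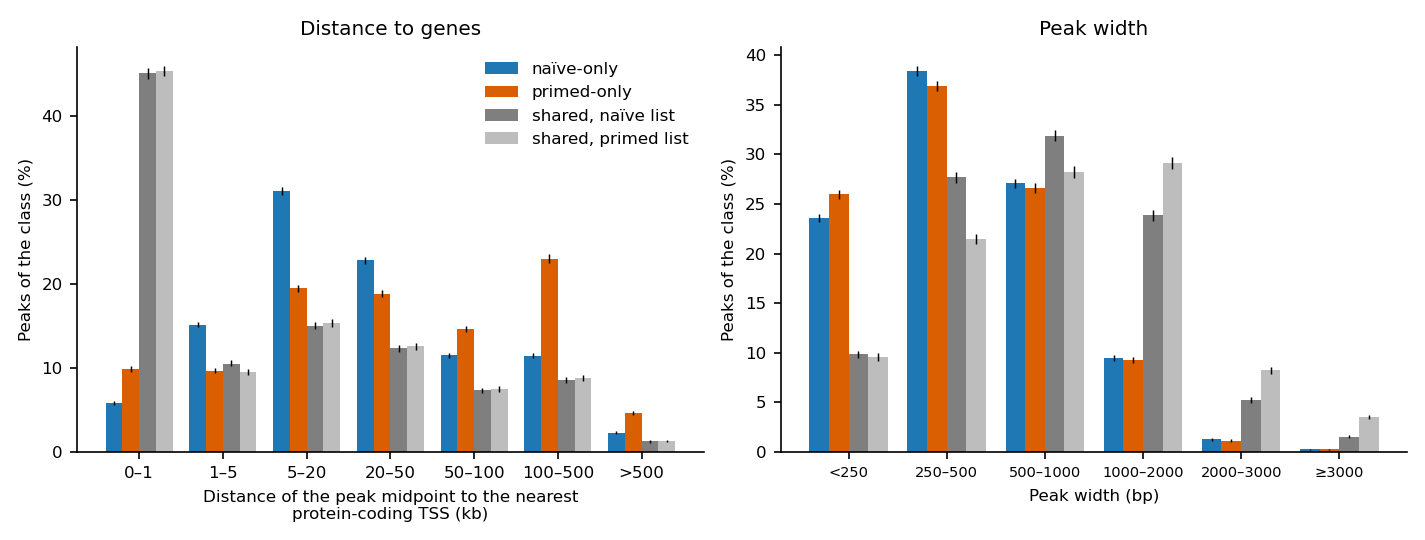
Share of peaks of each class by the distance of the midpoint to the nearest protein-coding TSS (left, kb) and by peak width (right, bp), with exact 95% intervals for counting error. Shared peaks stand out within 1 kb of a TSS (45.1% and 45.3%) and among peaks over 1000 bp, while naïve-only peaks are most frequent at 5 to 20 kb and primed-only peaks exceed the other classes beyond 50 kb.

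Promoters, taken as midpoints within 1 kb of a TSS, held 11395 of 25293 shared naïve peaks (45.1%, interval 44.4 to 45.7%). They held 2156 naïve-only peaks (5.82%, interval 5.58 to 6.06%) and 3321 primed-only peaks (9.86%, interval 9.54 to 10.2%). Shared peaks had 9.77 times the odds of state-only peaks to lie at a promoter (interval 9.41 to 10.1), and naïve-only peaks 0.565 times the odds of primed-only peaks (interval 0.534 to 0.598). The log2 value of the first ratio, 3.29, was 1.22 when both lists were reduced to peaks with −log10 q of at least 3 and 0.592 when both were reduced to a fold of at least 4. It was 3.07 when the counted peaks had that q and the other list was kept whole. Primed-only peaks at promoters were wider than other primed-only peaks, with medians of 637 and 367 bp, whereas naïve-only peaks had medians of 454 and 395 bp. Introns held 45.5% of naïve-only, 44.4% of primed-only and 23.6% of shared naïve peaks, and intergenic sequence held 33.8%, 29.2% and 19.3%. Coding exons held 1.68% of naïve-only, 1.08% of primed-only and 1.57% of shared naïve peaks.

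The state-only peaks were spread unequally over the chromosomes. On most chromosomes the numbers of naïve-only and primed-only peaks were similar, with a median over chromosomes of 1.03 naïve-only peaks per primed-only peak. Chromosome 19, the most gene-dense chromosome, carried 2709 naïve-only and 561 primed-only peaks, a ratio of 4.83. There 64.4% of naïve peaks (interval 63.0 to 65.9%) but 27.2% of primed peaks (interval 25.3 to 29.2%) were state-only. Chromosomes 17, 22, 20 and 16 followed with ratios of 1.97, 1.80, 1.53 and 1.44. At the other end, chromosome X carried 835 naïve-only and 1598 primed-only peaks, a ratio of 0.523, and 70.2% of its primed peaks (interval 68.3 to 72.1%) were primed-only. Without chromosome 19 the ratio over the genome was 1.04, against 1.10 with it.

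Gene density near the peak ran in the same direction. With no protein-coding gene within 100 kb of the midpoint there were 0.557 naïve-only peaks per primed-only peak, with 1 to 2 genes 1.09, with 3 to 5 genes 1.82, with 6 to 9 genes 2.38 and with 10 or more genes 2.67. Regions without such a gene held 37.3% of primed-only peaks, against 18.9% of naïve-only and 14.4% of shared naïve peaks. The base composition of the sites also differed between the classes. In the 200 bp around midpoints, naïve-only peaks had a median GC content of 49.5%, primed-only peaks 46.0% and shared peaks of the primed list 60.5%. Away from promoters the medians were 49.0% and 45.0% in the state-only classes. The part of GC content in the gene density and chromosome patterns was not tested.

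**Figure D2:**
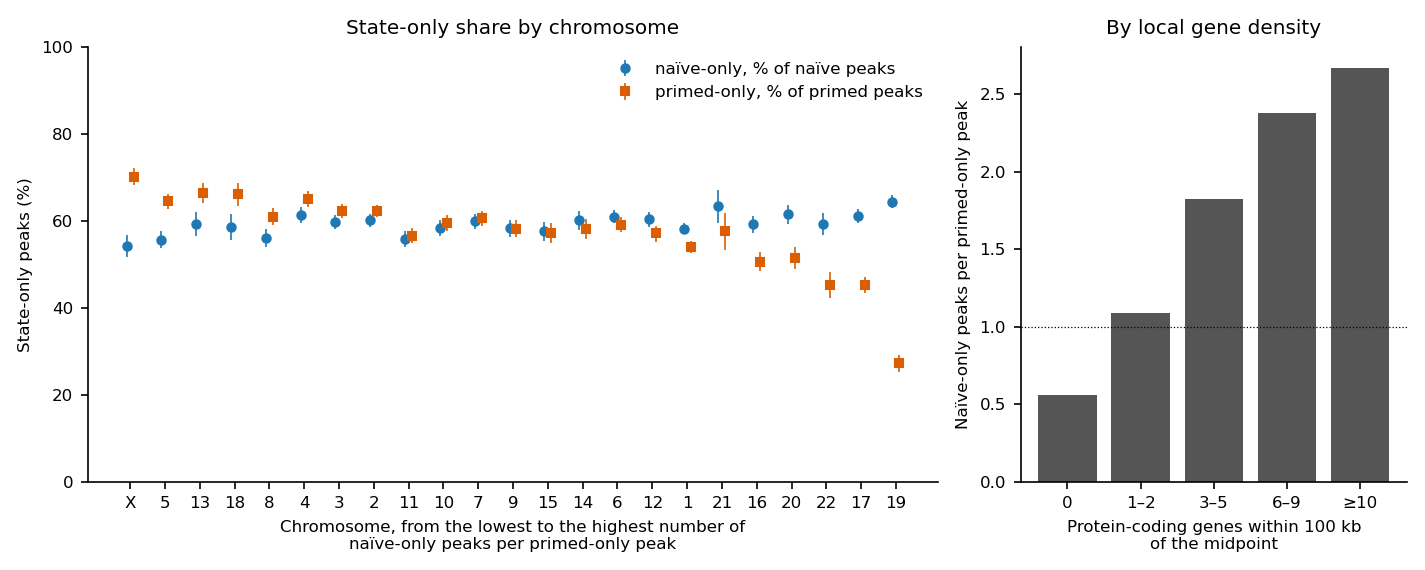
Left, share of naïve peaks that are naïve-only (circles) and of primed peaks that are primed-only (squares) by chromosome, with exact 95% intervals for counting error; right, number of naïve-only peaks per primed-only peak by the number of protein-coding genes within 100 kb. The primed-only share runs from 70.2% on chromosome X to 27.2% on chromosome 19 while the naïve-only share stays between 54.3% and 64.4%, and the ratio increases from 0.557 to 2.67 with gene density.

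For genes, a target peak was one whose nearest protein-coding TSS lay less than 20 kb away, a distance taken from the methods of the study, which do not name a limit to protein-coding genes. Of the naïve-only peaks 52.0% had a target gene, of the primed-only peaks 39.0% and of the shared naïve peaks 70.6%. Among 19962 protein-coding genes 46.2% had a naïve-only target peak, 39.6% a primed-only one and 58.8% a shared one of the naïve list. A gene was said to lean to a state when its state-only target peaks exceeded those of the other state by 2 or more. By this count 3266 genes (16.4%) leaned to naïve and 1601 (8.02%) to primed. The order of these counts depended on the filter. With −log10 q of at least 3 in both lists, which left 17665 naïve and 27065 primed peaks, 699 genes leaned to naïve and 1438 to primed. A minimum fold of 4 reduced the lists to 3146 and 10985 peaks, and these counts were 40 and 562 genes. The same fold cutoff was used although the median fold was 2.89 in the naïve and 3.28 in the primed list. The contrast between the states under this filter therefore includes the difference in fold scale. With the q applied to the counted peaks and the other list kept whole, they were 531 and 580. Genes with long bodies and several TSSs collect more peaks. The median gene length was 37.5 kb for genes that leaned to naïve, 66.9 kb for those that leaned to primed and 27.5 kb for all protein-coding genes. Of the 322 genes of 500 kb or more 36.3% leaned to primed and 8.07% to naïve, while of the 8349 genes under 20 kb 4.74% and 12.1% did.

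The 12 genes with the largest naïve-only excess had between 14 and 22 naïve-only peaks. ABR, on chromosome 17, had 22 naïve-only, 5 primed-only and 8 shared peaks. LIMA1, an actin-binding protein gene, had 17 naïve-only peaks and 1 primed-only peak, and MRTFA, a coactivator of serum response factor that responds to actin, had 15 and 1. GATAD2A, which encodes a subunit of the NuRD chromatin complex, had 16 naïve-only peaks and none that were primed-only. NECTIN2, an adhesion molecule gene, and DPRX, a homeobox gene of the early embryo, had 14 each and none that were primed-only. All 3 lie on chromosome 19. GAS7 (17 against 2), TBCD, a tubulin folding cofactor (16 against 1), RBM47, an RNA-binding protein (16 against 2), PACSIN2, which shapes membranes in endocytosis (19 against 6), ARHGEF18 (14 against 1), and SLC2A14, a glucose transporter (14 against 1), completed the first 12. The highest fold of any naïve-only peak at these genes was 4.52, at GAS7, so the excess lay in the number of modest peaks.

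At NECTIN2 the pattern covered the whole gene. In both states a shared peak spanned its 5′ end, with a width of 2468 bp in the naïve and 2226 bp in the primed list. Of the 14 naïve-only peaks 1 lay at −7.18 kb and the others inside the gene body, the widest being the last at 3988 bp with a fold of 3.35. The gene is 43.0 kb long (chromosome 19, 44846175 to 44889223, plus strand).

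The 12 genes with the largest primed-only excess had between 9 and 18 primed-only peaks. AUTS2, a gene of brain development that spans 1195 kb on chromosome 7, had 18 primed-only and 4 naïve-only peaks. TCF4, a basic helix-loop-helix factor of neurons, had 15 against 1. GATA3, a zinc finger factor of trophoblast and ectoderm, had 11 primed-only peaks and none that were naïve-only, and PAX7, a paired box factor of neural crest and muscle, had 10 and none. ANK2 (13 against 3) and NAV2, a gene of neurite growth (10 against none), are also active in neurons. DENND2B (14 against 2), CCDC85C (13 against 1), TSPAN18 (12 against none), NEDD4L and MID1, both ubiquitin ligases (15 against 6 and 12 against 3), and MCC (9 against none) made up the rest. Primed-only peaks there reached a fold of 7.12 at AUTS2 and 6.54 at ANK2. ANK2 also had a naïve-only peak with a fold of 6.60, whose sequence is given above.

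At GATA3 (chromosome 10, 8045378 to 8075198, plus strand) the primed peaks formed a broad domain. The primed list had 13 target peaks, of which 2 were shared, with widths of 3224 and 2967 bp. Their naïve partners were 716 and 1472 bp wide. The widest primed-only peak, of 3878 bp with a fold of 3.86, lay over a coding exon. At PAX7 (chromosome 1, 18630846 to 18748866, plus strand) the shared peak at the promoter measured 786 bp in the naïve and 627 bp in the primed list. The primed-only peaks lay from −3.62 kb to 18.5 kb of the nearest TSS, with the highest fold of 4.58 at −1.10 kb. At neither gene did the naïve list hold a peak outside the shared ones.

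**Figure D3:**
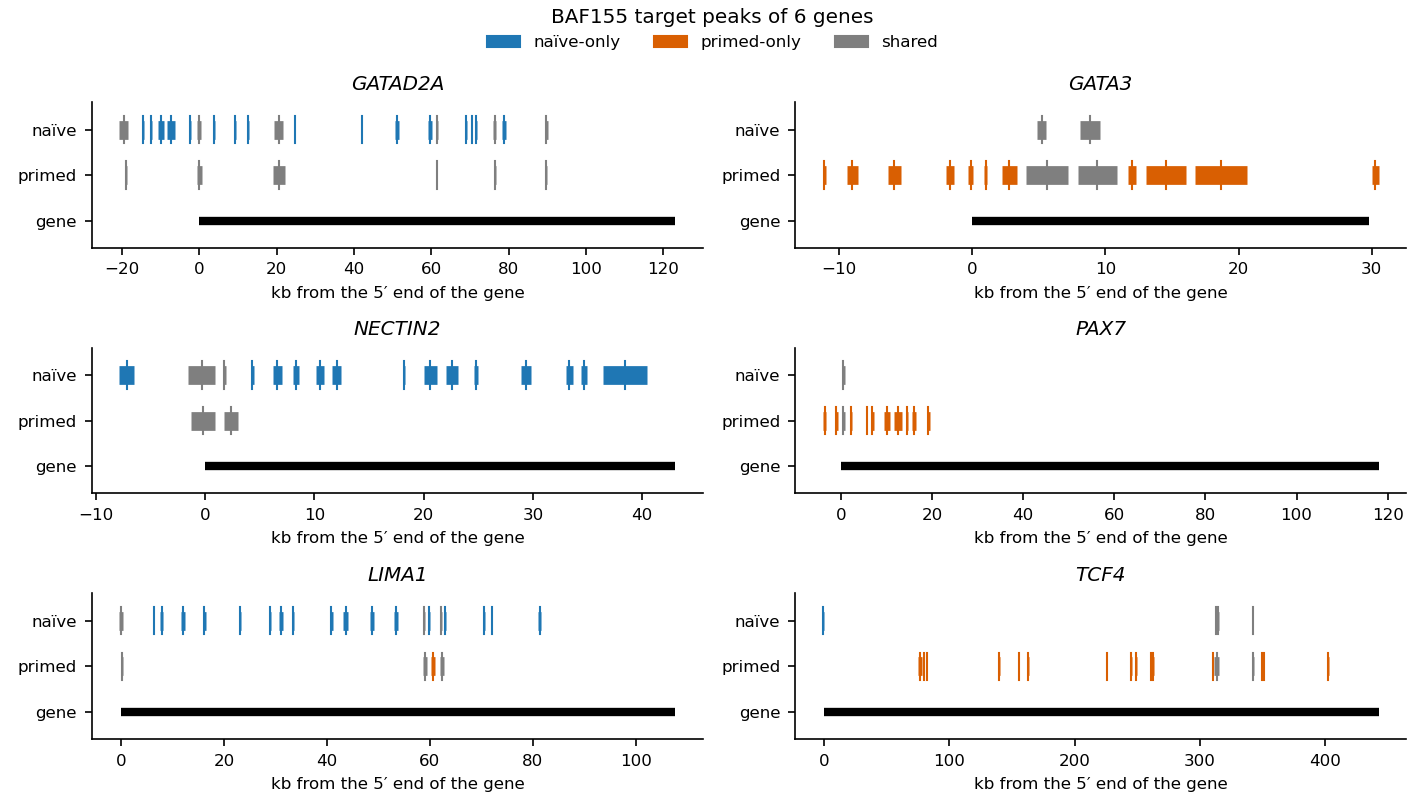
Target peaks of 6 genes in the naïve and primed lists, by distance in kb from the 5′ end of the gene (black bar, gene body; boxes, peaks to scale, each with a tick at its midpoint). Naïve-only peaks line the bodies of GATAD2A, NECTIN2 and LIMA1, primed-only peaks surround the shared ones at GATA3 and PAX7, and TCF4, a gene of 443 kb, has 15 primed-only peaks.

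The gene with the most shared peaks was BCOR. This gene, on chromosome X, had 15 shared naïve peaks and 9 shared primed peaks, with 2 naïve-only and 2 primed-only peaks. The primed peak of 20090 bp there covered several naïve peaks, of which the widest had 4758 bp. RERE, a nuclear receptor coregulator, had 12 shared naïve peaks, IQSEC1, an exchange factor of ARF GTPases, 11, FOXP1, a forkhead factor, 11, SEPTIN9, a cytoskeletal GTPase, 10, and CELF4, a splicing regulator, 9. These loci also carried state-only peaks, for example 14 naïve-only and 13 primed-only peaks at SEPTIN9 and 10 and 15 at FOXP1.

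Gene groups were then described by how many members leaned to either state. The 25 lists were drawn up with earlier results of these data known, so the counts describe the lists and do not support a direction. In the list of 25 naïve pluripotency genes all had a naïve-only peak (background 46.2%) and 9 had a primed-only one (background 39.6%). Of these 19 leaned to naïve (76.0%, background 16.4%) and 1 to primed, with a median difference of 3.00 peaks against 0 over all genes. SMARCA2, which encodes the ATPase BRM, had 8 naïve-only peaks and no primed-only one. DNMT3L, a cofactor of DNA methylation, and NLRP2, an oocyte and embryo protein, had 6 and none, and CBFA2T2, a corepressor, had 6 and 2. TBX3 was the 1 gene that leaned to primed, with 1 naïve-only and 4 primed-only peaks, and KLF5 had 1 and 2. Shared peaks were counted in the naïve list, here and in the lists that follow. At the promoter, 11 of the 25 genes had a naïve-only peak and no shared one (44%, against 6.26% of all genes). Fewer genes leaned to naïve under a stricter filter, in this list and over all genes. With −log10 q of at least 3 in both lists 3 of the 25 leaned to naïve (12%, background 3.50%) and 2 to primed (8%, background 7.20%).

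The primed pluripotency list of 26 genes gave the opposite picture, with 13 that leaned to primed (50.0%, background 8.02%) and 3 that leaned to naïve. NLGN4X, a synaptic adhesion gene, had 5 primed-only peaks and no naïve-only one. CDH2, which encodes N-cadherin, and SALL2, a zinc finger factor, had 5 against 1, and ZIC2 had 4 against none. With the stricter q in both lists 12 genes of the list leaned to primed (46.2%, background 7.20%) and none to naïve. All 15 core pluripotency genes had a shared peak (background 58.8%), and 5 leaned to naïve (33.3%, background 16.4%) and 1 to primed (6.67%, background 8.02%). With the stricter q 0 of the core genes leaned to naïve (background 3.50%) and 2 to primed (13.3%, background 7.20%). POU5F1, which encodes OCT4, had 3 naïve-only peaks and no primed-only one, CDH1, which encodes E-cadherin, had 5 against 1, and DNMT3B, a DNA methyltransferase, had 3 primed-only peaks and no naïve-only one.

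Among lineage lists the germ layer genes had more primed-only than naïve-only peaks. The trophoblast genes had 49 naïve-only and 31 primed-only peaks, an excess in the same direction as the 19257 and 13132 over all genes. Over all genes 16.4% leaned to naïve and 8.02% to primed. Of 29 neuroectoderm genes 13 leaned to primed (44.8%) and 3 to naïve, with a median difference of −1. POU3F2 had 7 primed-only peaks and no naïve-only one, ZIC1 had 6 against 1, SIX3, a forebrain and eye factor, 5 against none and FEZF2, a factor of cortical neurons, 4 against none. Their promoters often had a primed-only peak and no shared one (9 of 29, 31.0%, against 11.7% of all genes). Of 20 endoderm genes 6 leaned to primed (30.0%) and 1 to naïve, with FOXA2, a pioneer factor, at 5 against none and GATA4 at 6 against 1. Of 20 primitive streak and mesoderm genes 8 leaned to primed and 4 to naïve. There EVX1, a homeobox gene of the streak, had 6 primed-only peaks and no naïve-only one, whereas WNT3, a ligand that induces the streak, had 9 naïve-only peaks against 2. Of 23 trophoblast genes 9 leaned to naïve (39.1%) and 3 to primed. GCM1, a regulator of syncytiotrophoblast, had 5 naïve-only peaks and no primed-only one, and TEAD4 and TFAP2C had 5 and 6 against 1, while GATA3 went the other way. With the stricter q these counts were 9 and 0 of the neuroectoderm genes for primed and naïve, 5 and 2 of the endoderm genes, 2 and 1 of the mesoderm genes and 4 and 1 of the trophoblast genes. Over all genes the same filter gave 7.20% for primed and 3.50% for naïve, so the order of the shares turned there as it did in the trophoblast list.

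Genes of neuronal wiring often leaned to primed, to be read against 8.02% of all genes that leaned to primed and 16.4% to naïve. Of 40 axon guidance genes 19 leaned to primed (47.5%) and 4 to naïve. EPHB3, an ephrin receptor, had 7 primed-only peaks, NRP2, a semaphorin receptor, 6 and EPHA4 5, and none of these had a naïve-only one, and SEMA6D, a semaphorin, had 6 against 1. Of 34 synaptic adhesion genes 19 leaned to primed (55.9%) and 3 to naïve, the lowest median difference of any list at −2. ADGRL2, a latrophilin, had 9 against 1, and the phosphatase gene PTPRD had 8 against none. The median length was 832 kb for the synaptic and 190 kb for the axon guidance genes. Among all genes of 100 to 200 kb 12.9% leaned to primed and 21.7% to naïve, and from 200 to 500 kb 22.3% and 14.6%. At 500 kb or more these shares were 36.3% and 8.07%. Neuroectoderm genes were short, with a median of 5.95 kb. With the stricter q 13 of the synaptic (38.2%) and 15 of the axon guidance genes (37.5%) leaned to primed (background 7.20%), and 1 and 0 to naïve.

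**Figure D4:**
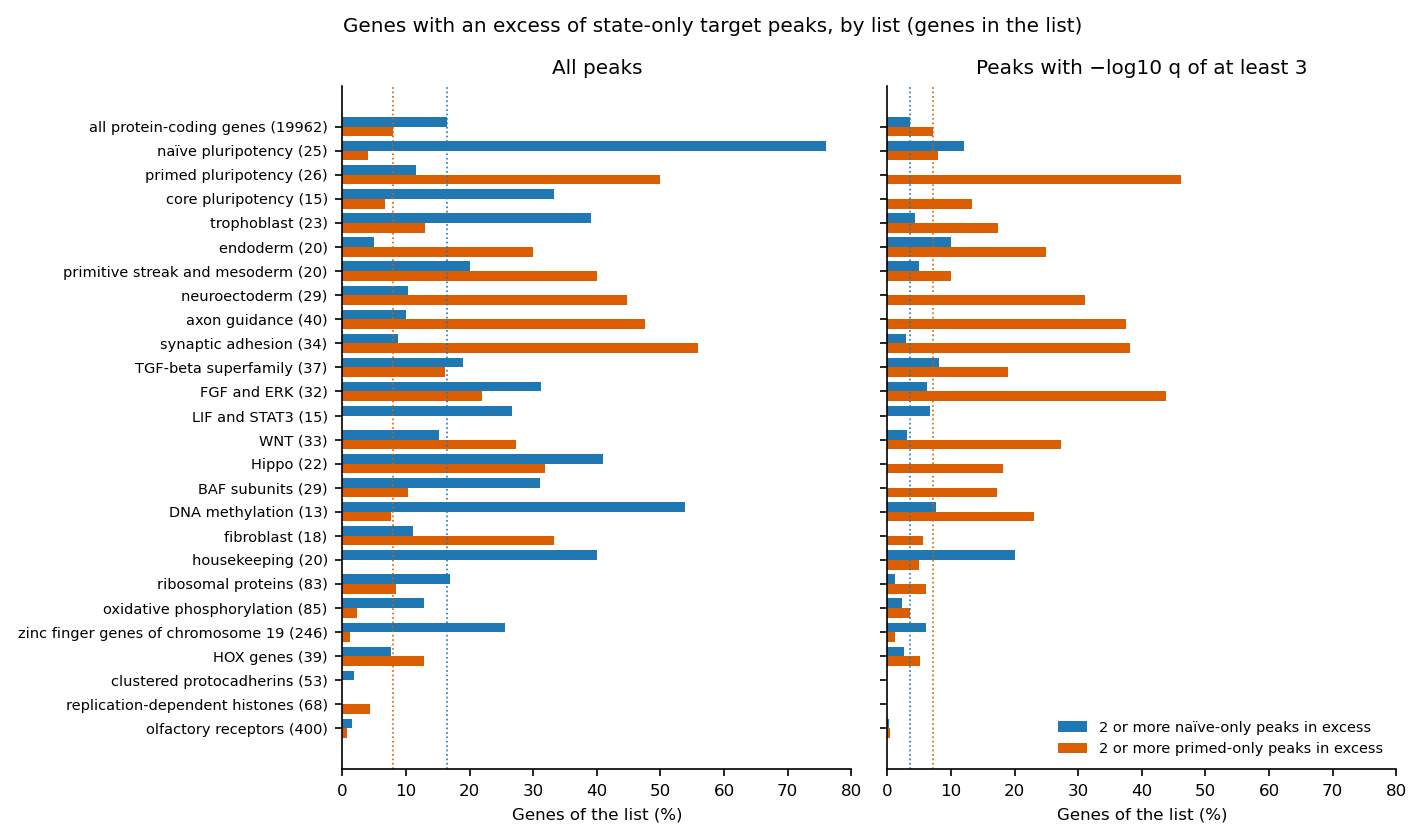
Percent of the genes of each list with at least 2 more naïve-only than primed-only target peaks (blue) or the reverse (orange), for all peaks (left) and for peaks with −log10 q of at least 3 in both lists (right); dotted lines, all 19962 protein-coding genes. With all peaks the naïve pluripotency list reaches 76.0% and the synaptic adhesion list 55.9% in opposite directions, and with the stricter peaks the shares are 12% and 38.2%.

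Signalling lists were mixed, to be read against 16.4% of all genes that leaned to naïve and 8.02% that leaned to primed. Shared promoters were frequent among them, with all 15 LIF and STAT3 genes, all 22 Hippo genes and 32 of 37 TGF-beta genes carrying a shared promoter peak (background 51.1%). Of the LIF and STAT3 genes 4 leaned to naïve (26.7%) and 0 to primed, led by IL6R, a cytokine receptor (5 against 1), and IL6ST, which encodes the common signalling subunit gp130 (3 against none). Of 32 FGF and ERK genes 10 leaned to naïve (31.2%) and 7 to primed (21.9%). The adaptor gene GRB2 had 7 naïve-only peaks against 1, whereas the ligand gene FGF1 had 7 primed-only against 2. With the stricter q the counts of that list were 2 (6.25%, background 3.50%) and 14 (43.8%, background 7.20%). In the Hippo list 9 leaned to naïve (40.9%) and 7 to primed (31.8%), with YAP1, the coactivator of the pathway, at 8 primed-only peaks and no naïve-only one and the kinase gene LATS2 at 5 naïve-only peaks and no primed-only one. Of 37 TGF-beta genes 7 leaned to naïve (18.9%) and 6 to primed (16.2%), with TGFBR3, a coreceptor, at 7 naïve-only peaks and no primed-only one, and the ligand gene BMP4 at 4 primed-only peaks and no naïve-only one. Of 33 WNT genes 9 leaned to primed (27.3%) and 5 to naïve (15.2%), with the receptor gene FZD3 at 4 against none and CTNNB1, which encodes beta-catenin, at 5 against 2, and with the ligand gene WNT5B at 8 naïve-only against 3. With the stricter q 0 of the Hippo genes leaned to naïve and 4 (18.2%) to primed. In the TGF-beta list these counts were 3 (8.11%) and 7 (18.9%), in the WNT list 1 (3.03%) and 9 (27.3%), and in the LIF and STAT3 list 1 (6.67%) and 0.

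Genes of the BAF complexes and of DNA methylation leaned to naïve more often than to primed when all peaks were counted. Of 29 BAF subunit genes 9 leaned to naïve (31.0%, background 16.4%) and 3 to primed (10.3%, background 8.02%). SMARCA4, which encodes BRG1, had 8 naïve-only peaks and no primed-only one, BICRA, a subunit of the non-canonical complex, 5 and none, and SMARCC2, the paralogue of the BAF155 gene, 4 and none. SMARCC1 itself had 2 naïve-only and 2 shared peaks. Of 13 DNA methylation genes 7 leaned to naïve (53.8%) and 1 to primed (7.69%), with DNMT1, the maintenance methyltransferase, at 8 against 1, and TET2, a methylcytosine dioxygenase, at 6 and ZFP57, which protects imprints, at 5, both with no primed-only peak. Of the members named, SMARCA4, BICRA and DNMT1 lie on chromosome 19. With the stricter q 0 of the BAF subunit and 1 of the DNA methylation genes leaned to naïve (background 3.50%), and 5 (17.2%) and 3 (23.1%) to primed (background 7.20%).

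The 246 zinc finger genes of chromosome 19 were picked by symbol. Many genes of this kind lie in clusters and repress transposable elements. Of the 246 genes 63 leaned to naïve (25.6%) and 3 to primed (1.22%), against 31.3% and 0.894% of the other genes of the chromosome. ZNF98 had 9 naïve-only peaks, ZNF875 8 and ZNF57 and ZNF730 7 each, and none had a primed-only one. The pattern was not particular to the zinc finger genes, since 62.8% of the 1230 genes outside the list had a naïve-only peak and 23.3% a primed-only one, against 58.1% and 25.6% in the list. The zinc finger promoters differed in having a naïve-only peak without a shared one in 22.4% of genes, against 11.4% of the other genes of the chromosome and 6.26% of all genes. They also had a primed-only peak without a shared one more often than those other genes (17.1% against 7.56%, and 11.7% of all genes).

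Ribosomal protein genes showed state-only peaks at the promoter itself. Of 83 such genes 35 had a primed-only promoter peak and no shared one (42.2%, background 11.7%), and 30 had a shared one (36.1%, background 51.1%). The replication-dependent histone genes had the same feature, with 24 of 68 (35.3%) at a primed-only and 14 (20.6%) at a shared promoter peak. For 85 genes of oxidative phosphorylation 21 (24.7%) had a primed-only promoter peak and no shared one. By target peaks 14 of 83 ribosomal protein genes (16.9%, background 16.4%) leaned to naïve and 7 (8.43%, background 8.02%) to primed. Of the histone genes 0 leaned to naïve and 3 (4.41%) to primed, and of the oxidative phosphorylation genes 11 (12.9%) and 2 (2.35%). Of 20 housekeeping genes 18 had a shared promoter. In this list 8 genes leaned to naïve (40%, background 16.4%) and 0 to primed, with the actin gene ACTB at 8 naïve-only against 2 primed-only peaks. With the stricter q 4 housekeeping genes leaned to naïve (20%, background 3.50%) and 1 to primed (5%, background 7.20%). This naïve share was the largest of any list under that filter, the naïve pluripotency list included. Of 39 HOX genes 3 (7.69%) leaned to naïve and 5 (12.8%) to primed. Olfactory receptor and clustered protocadherin genes carried few promoter peaks. A promoter peak that was state-only or shared in the naïve list was absent from 387 of 400 olfactory receptor genes (96.8%). It was absent from 41 of 53 clustered protocadherin genes (77.4%), against 32.5% of all genes. Of 18 fibroblast genes, taken as a list for the feeder cells, 2 leaned to naïve (11.1%) and 6 to primed (33.3%). PRRX1, a mesenchymal factor, led the latter with 4 primed-only peaks and no naïve-only one. With the stricter q 0 fibroblast genes leaned to naïve and 1 to primed (5.56%, background 7.20%). A part of mouse reads in the peaks of this list was not tested.

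Sequence words were counted in the 200 bp at each midpoint, on both strands, with windows 2 kb to either side of the same peaks as background. Away from promoters and between the state-only classes, naïve-only peaks held more KLF and TFAP2 words and primed-only peaks more SOX, ZIC and AP-1 words. A stretch of bases may count for more than 1 word, and a word is a match of letters and not evidence of binding. The KLF words (GGGTGTGGC and GGGCGTGGC) were found in 2.23% of distal naïve-only windows (interval 2.08 to 2.39%) and 0.323% of distal primed-only windows (interval 0.262 to 0.393%), an odds ratio of 7.05 (interval 5.71 to 8.71). At 2 kb the shares were 0.460% and 0.300%, so the primed-only windows were near their surroundings. The TFAP2 word (GCCNNNGGC) was found in 10.6% and 6.03%, against 4.60% and 4.14% at 2 kb, with an odds ratio of 1.84 (interval 1.74 to 1.95). Distal shared windows of the naïve list held the TFAP2 word more often than either, at 13.1% (5.67% at 2 kb). They held the KLF words in 1.53% (0.504% at 2 kb).

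The ZIC word (CCTGCTG) was found in 13.6% of distal primed-only windows (interval 13.3 to 14.0%) and 6.77% of distal naïve-only windows (interval 6.51 to 7.04%), with 4.73% and 4.65% at 2 kb. The SOX words (CATTGT and CTTTGT) were found in 35.5% (primed-only) and 22.9% (naïve-only), while the flanks held 24.7% and 21.9%. For ZIC the odds in naïve-only windows were 0.460 times those in primed-only windows (interval 0.436 to 0.485), and for SOX 0.538 times (interval 0.520 to 0.557). The AP-1 word (TGANTCA) followed them with 12.8% and 7.46% (6.11% and 5.6% at 2 kb) and an odds ratio of 0.548 (interval 0.520 to 0.577).

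Further words are given for comparison. The OCT word (ATGCAAAT) was above its surroundings in both, at 2.87% of distal naïve-only and 3.85% of distal primed-only windows, against 1.38% and 1.83% at 2 kb, and the odds ratio of 0.736 at the peaks was close to the 0.753 at 2 kb. The TEAD word (CATTCCA) was found in 5.80% and 6.02%, with an odds ratio of 0.961 (interval 0.900 to 1.03), against 3.59% and 3.69% at 2 kb. The GATA word (AGATAA) lay near its surroundings in both (11.2% against 11.1%, and 13.8% against 13.3%), as did the NR5A word (TCAAGGNCA) and the E-box CAGGTG, the last at 21.8% (naïve-only) and 16.3% (primed-only), where the flanks held 21.1% and 16.4%. For STAT (TTCCNGGAA) the odds ratio was 0.991 (interval 0.823 to 1.19), and for FOXH1 (TGTGGATT) it was 0.834 (interval 0.707 to 0.982), with 0.813 at 2 kb.

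**Figure D5:**
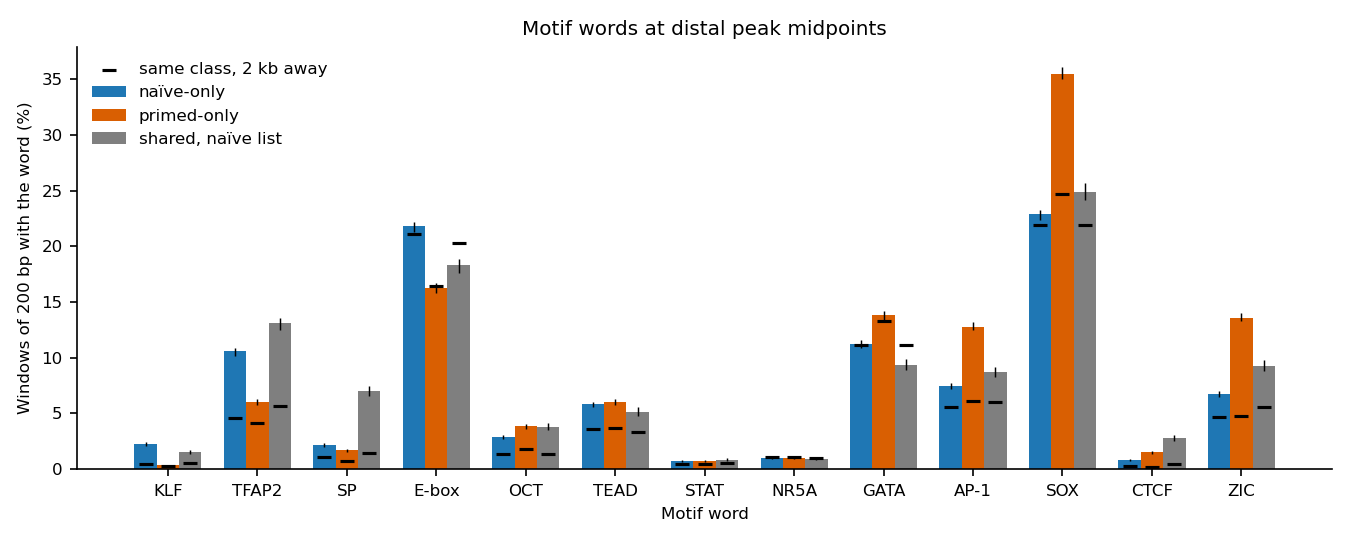
Percent of 200 bp windows at the midpoints of distal naïve-only, distal primed-only and distal shared (naïve list) peaks that hold a motif word, with exact 95% intervals for counting error; dashes mark the same classes 2 kb away. SOX, ZIC and AP-1 words are most frequent at primed-only peaks (35.5%, 13.6% and 12.8%), and KLF words at naïve-only peaks (2.23%).

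Several words of promoters and of boundary elements were more frequent in the shared class, in which 45.1% of naïve peaks lay at promoters. The SP word (GGGGCGGG) was found in 14.9% of shared naïve windows, against 2.57% in the naïve-only and 2.59% in the primed-only class, with 1.47% at 2 kb from shared peaks. The words for NRF1 (GCGCATGCG, 0.534%), ETS (CCGGAAGT, 1.11%) and YY1 (AAGATGGCG, 0.502%) were likewise most frequent in shared windows when all windows were taken, against at most 0.0999%, 0.419% and 0.217% in the state-only classes. For ETS and YY1 this order did not hold within promoters, where primed-only windows had 2.77% and 1.48% and shared naïve windows 2.08% and 0.992%. Away from promoters ETS was found in 0.317% of shared naïve and 0.310% of naïve-only windows, and YY1 in 0.101% and 0.143%. The CTCF word (AGNGGGCGC) was found in 3.92% of the shared naïve, 1.69% of the primed-only and 0.864% of the naïve-only class, and away from promoters in 2.75%, 1.51% and 0.791%. The last 2 gave an odds ratio of naïve-only against primed-only windows of 0.520 (interval 0.447 to 0.604). The median ratio of observed to expected CpG was 0.821 at shared promoters, 0.665 at primed-only promoters and 0.475 at naïve-only promoters, so that the naïve-only promoters had the lowest CpG content of these.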

How the data were processed

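BAF155 ChIP-seq was analysed in 1 naïve and 1 primed library. Per the methods of the study and the labels, reads were trimmed, mapped to hg38 with Bowtie2 2.3.4 and freed of duplicates with SAMtools 0.1.19, and broad peaks were called against input with MACS2. The deposited lists give for each peak the caller's score, the linear ratio of ChIP to input (fold), and the p-value and q-value as −log10 (at least 1.01 for q). These are the authors' values, used to rank and filter; the score was not used further. Read depth is not given in the lists and input libraries were not analysed here. Sequences and gene positions were read from hg38 and GENCODE release 44, and all peaks lay within the chromosome lengths.

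Peaks on chromosomes 1 to 22 and X were classed by at least 25% coverage of either peak. Distances ran from midpoints to TSSs of protein-coding transcripts. No test across samples was possible, and no p-values were computed. The class, list and word definitions were chosen with earlier results of these data known. Named genes were the 12 with the largest excess in each direction, the 6 with the most shared peaks, up to 4 members per list by size of difference, and the targets of the strongest peaks. Scripts ran in Python 3.11.15 with numpy 2.4.6, pandas 2.3.3 and scipy 1.17.1 and were checked on simulated peaks. Some items that these rules select are not reported here.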

Additional observations from a re-analysis of the deposited data

How the results depend on the processing

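The shares of naïve-only and primed-only peaks, 59.4% and 57.7%, depended on the overlap rule, with 58.5% and 56.9% for any overlap, 66.1% and 63.8% for 25% of both peaks, 78.7% and 77.2% for 50% of both, 54.5% and 53.5% when peaks within 1 kb counted as shared, and 69.0% and 66.9% with peaks of 500 bp. With −log10 q of at least 3 in both lists they were 61.4% and 74.9%, with a fold of at least 4 in both 61.0% and 88.8%, with only the peaks of that q counted against the other list in full 45.1% and 46.3%, and with the longer list cut to the length of the shorter 57.9% and 58.8%. Leaving out chromosome 19, an alternative chosen after seeing the data, gave 58.9% for primed.

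The log2 odds of a promoter, 3.29 for shared against state-only peaks, were in the same order of settings 3.34, 2.81, 2.22, 3.36, 2.11, 1.22, 0.592, 3.07 and 3.21, and 2.91 with promoters of 2 kb and 2.66 with the TSSs of all annotated genes. For naïve-only against primed-only peaks the log2 value of −0.823 was −0.512 for 25% of both, −0.354 for 50% of both, −0.969 within 1 kb, −0.429 with 500 bp, −0.566 with a fold of at least 4, −0.540 with the q applied to the counted peaks, −0.348 with promoters of 2 kb and −0.385 with all TSSs. No setting that was run turned either sign.

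The 3266 genes that leaned to naïve were 699 with the stricter q in both lists, 40 with the stricter fold, 531 with the q applied to the counted peaks and 1644 when a difference of 3 peaks was required. They were 4738 when peaks in the gene body or under 20 kb upstream were counted. The 1601 genes that leaned to primed were 562 with the stricter fold, 580 with the q applied to the counted peaks, 659 with a difference of 3 peaks and 2617 when peaks in the gene body or under 20 kb upstream were counted. The causes of these shifts were not tested. No paired analysis was possible because each state had 1 BAF155 library. The source data of the study give read counts for both libraries, which were not used here. Where no peak is listed BAF155 may still bind below the calling threshold.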
